A study of Mus musculus with 24 samples.

Results

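NF-kB is a family of dimeric transcription factors that wait in the cytoplasm until a receptor signal releases them, and the genes described here encode its subunits and the proteins that it induces to regulate itself. 10 genes were listed, and 9 of them were measured among the 12393 genes of the array: Nfkb2, Rela, Relb, Rel, Nfkbia, Nfkbie, Nfkbiz, Tnfaip3 and Bcl3. A member was taken where a probe set was annotated to its symbol alone, and where a gene had several, its brightest probe set on average was used. Nfkb1 was matched by no probe set under that rule and is not analysed here. The measured members had 14 of the 22690 probe sets, with 6 genes on 1 probe set and 3 genes on several.

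Lung RNA came from 24 female mice of the inbred strain BALB/C, aged 8 to 10 weeks, with 1 Affymetrix array per mouse and 3 mice per group. Diesel exhaust particles, soot from engine exhaust, were of 3 chemically different kinds (labels: N-DEP, A-DEP, C-DEP), and the NDEP, ADEP and CDEP groups each received 150 ug of one kind. The Saline group was their control. The NDEP/OVA, ADEP/OVA and CDEP/OVA groups received 150 ug of particles and 20 ug of ovalbumin (OVA), an egg white protein used as a model allergen, and the OVA group received 20 ug of ovalbumin without particles. Every mouse was dosed through the nose on days 0 and 13, and lungs were collected 18 hours after the second dose. The 4 OVA groups carry the label sensitized and the other 4 do not. The comparisons ask how each particle changed these genes alone and with the allergen.

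All values are on the log2 scale of the normalised probe set intensity, so a difference of 1 is a 2-fold ratio. Differences are followed by their SE from limma, a linear model fitted to all genes, and a gene is said to have passed when its Benjamini-Hochberg adjusted p, taken over all 12393 genes, was below 0.05. "Rose" is used only of genes that passed. The probes of one gene cannot be set against those of another, so levels are compared only between groups for the same gene. Whole lung was measured, so more cells of a type and more RNA per cell cannot be told apart.

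The arrays carried lung markers in every group. The summed intensity of 5 measured markers of alveolar type 2 cells, which make surfactant, lay between 21402 and 37307 over all mice. The 4 measured eosinophil markers (Epx, Prg2, Siglecf and Ccr3) lay below the 25th percentile of the array on all arrays, in the OVA groups as well. Array medians lay between 72.2 and 75.5 intensity units.

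In the classical route, signals from toll-like receptors and from the receptors of tumour necrosis factor and interleukin-1 activate a kinase complex that marks the inhibitor IkB-alpha (from Nfkbia) for destruction, and dimers of p50 and p65 (from Nfkb1 and Rela) enter the nucleus. In the alternative route, p100 (from Nfkb2) is cut to p52, which pairs with RelB. Several of the genes switched on by NF-kB are its own brakes, among them Nfkbia, Nfkbie and Tnfaip3, so their RNA is often read as a record of past activity. In the lung, the pathway is known for driving chemokines that call in neutrophils.

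The dimers bind a short GC-rich sequence called the kappa-B site. RefSeq promoter windows of build GRCm38.p6, 250 bases before to 50 bases after a start site, were held for 7 of the 9 measured members, in 10 windows. The kappa-B decamer consensus, searched on both strands, matched in 6 of these 7 members (Nfkb2, Rel, Nfkbia, Nfkbie, Tnfaip3 and Bcl3) and in 8 of their 10 windows, against 8.46% of all 32851 windows and 9.55% of 27025 genes. Rela had no match in its window. These matches describe letters and do not show that a site is used. The 140 bases before the start site are shown for 4 members because they hold the matches, with bases of decamer matches in capitals. On their brightest probe sets, Nfkb2 and Nfkbie passed a test in this study, whereas Nfkbia and Tnfaip3 did not. A second probe set of Nfkb2 passed no test. The windows are chr19:46304597-46304736 on the plus strand for Nfkb2 (the first listed of its 3 start sites), chr17:45555560-45555699 on the plus strand for Nfkbie, chr12:55492648-55492787 on the minus strand for Nfkbia, and chr10:19015411-19015550 on the minus strand for Tnfaip3.
Nfkb2: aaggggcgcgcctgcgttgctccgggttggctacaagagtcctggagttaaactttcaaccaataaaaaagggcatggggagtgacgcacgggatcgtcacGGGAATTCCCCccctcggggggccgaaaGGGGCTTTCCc
Nfkbie: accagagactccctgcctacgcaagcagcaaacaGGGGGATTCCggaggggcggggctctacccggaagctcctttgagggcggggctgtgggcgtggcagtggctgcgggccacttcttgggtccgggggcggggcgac
Nfkbia: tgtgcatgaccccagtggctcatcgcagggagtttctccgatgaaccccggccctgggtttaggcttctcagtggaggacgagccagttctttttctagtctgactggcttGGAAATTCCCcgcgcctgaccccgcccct
Tnfaip3: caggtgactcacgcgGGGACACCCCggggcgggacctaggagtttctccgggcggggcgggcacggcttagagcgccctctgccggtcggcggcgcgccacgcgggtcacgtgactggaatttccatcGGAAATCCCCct
The decamer match of Nfkbia began 29 bases before the start site, and that of Nfkbie began 106 bases before it. Nfkb2 had overlapping matches from 39 bases before the start site and another from 11 bases before it. Tnfaip3 had matches from 125 and 12 bases before its start site. Nfkbia, with a match close to its start site, and Rel, with overlapping matches from 92 bases before its own, passed no test in these lungs.

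Over the 8 groups, 5 of the 9 members differed in limma's moderated F test, against 7.61% of all genes: Nfkbiz (adjusted p = 0.00077), Relb (adjusted p = 0.00229), Nfkb2 (adjusted p = 0.00525), Nfkbie (adjusted p = 0.00925) and Bcl3 (adjusted p = 0.0497). The call of Bcl3 lay at the threshold: its limma adjusted p was 0.0561 when all probe sets were tested and 0.0586 after another quantile normalisation, and it was lost with 19 of the 24 mice left out in turn. The other 4 passed with any of the 24 mice left out. Tnfaip3 did not pass (adjusted p = 0.11), nor did Rel (adjusted p = 0.448), Rela (adjusted p = 0.864) or Nfkbia (adjusted p = 0.886). The distance between the highest and the lowest group mean was 0.89 for Relb, 0.81 for Nfkbiz, 0.72 for Bcl3, 0.62 for Nfkb2 and 0.58 for Nfkbie. It was 0.20 for Rela and 0.19 for Nfkbia. The 4 members that passed with every mouse left out in turn were the subunits of the alternative route (Nfkb2 and Relb), 1 cytoplasmic inhibitor (Nfkbie) and the nuclear IkB protein Nfkbiz. On their second probe sets, Nfkb2 and Nfkbiz did not pass the F test (adjusted p = 0.223 and 0.134 over all probe sets). Relb and Nfkbie had 1 probe set each.

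**Figure D1:**
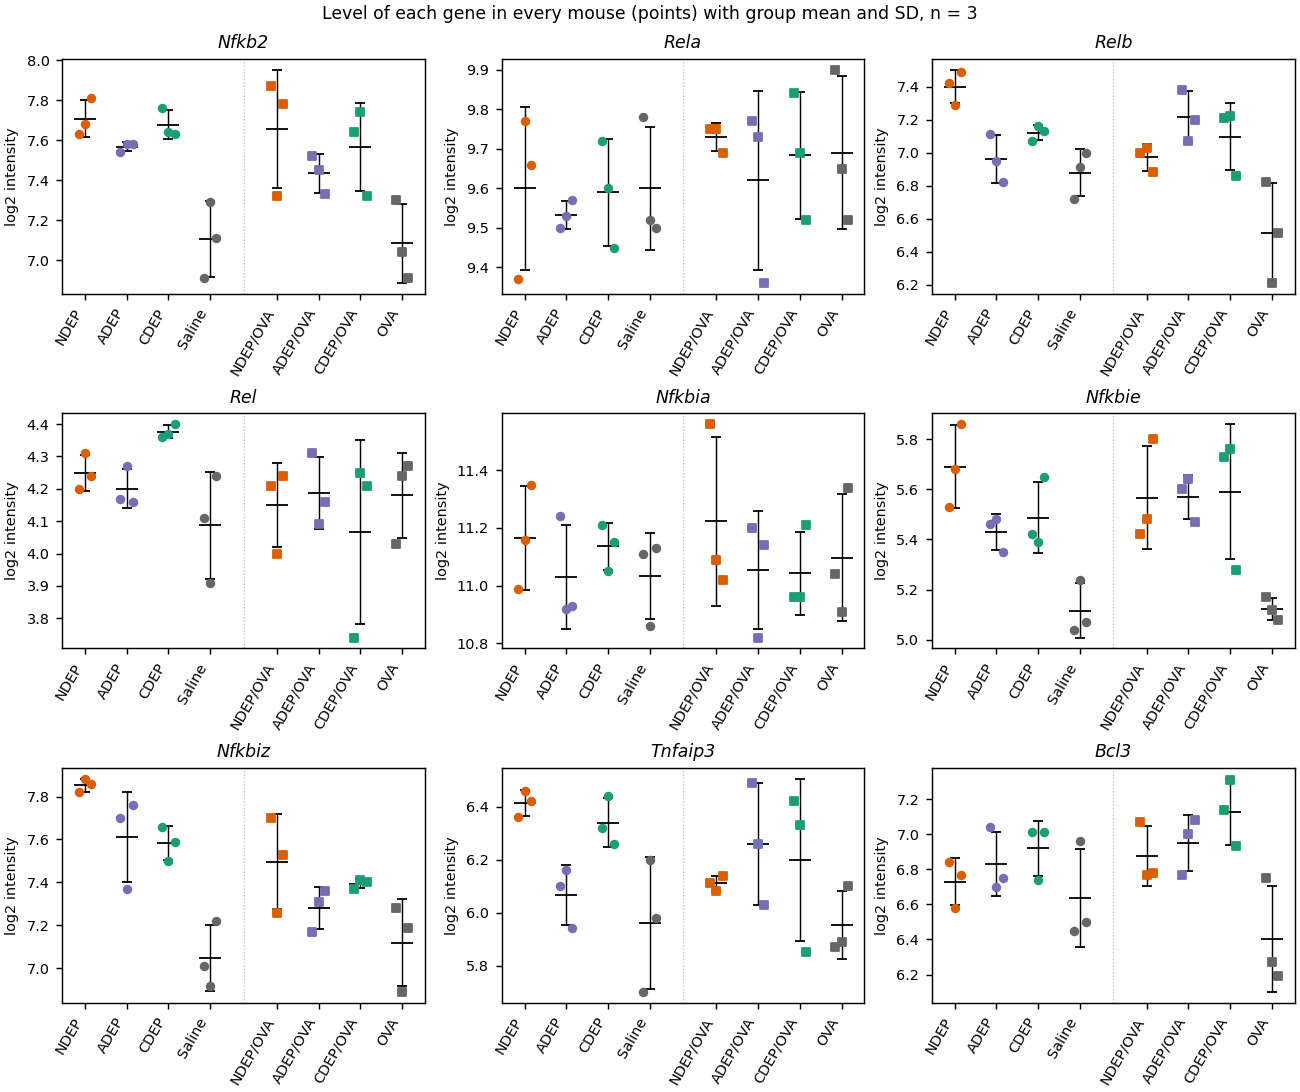
Log2 intensity (y axis) of each measured member in every mouse, by group (x axis), with the group mean (wide bar) and SD (whiskers), n = 3 mice; circles are groups without OVA and squares are groups with OVA, and each panel has its own y range. Saline and OVA hold the 2 lowest means for Nfkb2, Relb, Nfkbie, Nfkbiz, Tnfaip3 and Bcl3, but not for Rela, Rel or Nfkbia.

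Nfkb2 encodes p100, which is both the precursor of the p52 subunit and an inhibitor that holds RelB in the cytoplasm. Its log2 level was 7.63, 7.68 and 7.81 in NDEP lungs, 7.54, 7.58 and 7.58 in ADEP lungs and 7.76, 7.64 and 7.63 in CDEP lungs, against 6.91, 7.29 and 7.11 in Saline lungs. Every particle mouse lay above all Saline mice. Nfkb2 rose in NDEP lungs by 0.60 ± 0.13 (limma adjusted p = 0.0116), a 1.52-fold difference, and in CDEP lungs by 0.57 ± 0.13 (limma adjusted p = 0.0187). The difference in ADEP lungs was 0.46 ± 0.13 with a limma adjusted p of 0.0759. These comparisons share the same 3 Saline mice. With OVA, the levels were 7.87, 7.32 and 7.78 in NDEP/OVA lungs, 7.52, 7.45 and 7.33 in ADEP/OVA lungs and 7.64, 7.74 and 7.32 in CDEP/OVA lungs, against 7.30, 7.04 and 6.91 in OVA lungs. The groups did not overlap here either, though the lowest mouse of each particle group, at 7.32 to 7.33, lay close to the highest OVA mouse at 7.30. Nfkb2 rose in NDEP/OVA lungs by 0.57 ± 0.13 (limma adjusted p = 0.0179) and in CDEP/OVA lungs by 0.48 ± 0.13 (limma adjusted p = 0.0341). In ADEP/OVA lungs the difference was 0.35 ± 0.13 (limma adjusted p = 0.269). In the order of group means, the NDEP and CDEP groups came first and the Saline and OVA groups last, and the neighbours that did not overlap were ADEP above ADEP/OVA and ADEP/OVA above Saline. A second probe set of Nfkb2, 1429128_x_at, differed by 0.11 in NDEP lungs, 0.17 in CDEP lungs, 0.19 in NDEP/OVA lungs and 0.11 in CDEP/OVA lungs and passed in none of these comparisons. With 1 mouse left out, the NDEP difference lay between 0.51 and 0.69 and was not called without mouse 1 of Saline or mouse 3 of NDEP, and the CDEP difference lay between 0.47 and 0.66 and was not called without mouse 1 of Saline or mouse 1 or 2 of CDEP. The NDEP/OVA difference lay between 0.46 and 0.74 and was lost without mouse 2 or 3 of OVA or mouse 1 or 3 of NDEP/OVA, and the CDEP/OVA difference lay between 0.39 and 0.60 and was lost without mouse 2 or 3 of OVA or mouse 1 or 2 of CDEP/OVA. With only the compared groups fitted, the limma adjusted p was 0.136 for NDEP/OVA and 0.0744 for CDEP/OVA, and the CDEP/OVA call was also lost after another quantile normalisation (limma adjusted p = 0.0552).

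Relb encodes RelB, the partner of p52 in the alternative route. Its level was 7.42, 7.29 and 7.49 in NDEP lungs, 7.11, 6.95 and 6.82 in ADEP lungs and 7.07, 7.16 and 7.13 in CDEP lungs, against 6.72, 6.91 and 7.00 in Saline lungs. NDEP and CDEP mice lay above all Saline mice, while ADEP mice overlapped them. Relb rose in NDEP lungs by 0.53 ± 0.13 (limma adjusted p = 0.0235), or 1.44-fold. The difference was 0.24 ± 0.13 in CDEP lungs (limma adjusted p = 0.303) and 0.09 ± 0.13 in ADEP lungs (limma adjusted p = 0.815). With OVA, the level was 7.00, 7.03 and 6.88 in NDEP/OVA lungs, 7.38, 7.07 and 7.20 in ADEP/OVA lungs and 7.21, 7.22 and 6.86 in CDEP/OVA lungs, against 6.82, 6.21 and 6.51 in OVA lungs. Here all 3 particle groups lay wholly above the OVA mice, and mouse 2 of the OVA group was the lowest of all 24 mice. Relb rose in ADEP/OVA lungs by 0.70 ± 0.13 (limma adjusted p = 0.00644), or 1.63-fold, and in CDEP/OVA lungs by 0.58 ± 0.13 (limma adjusted p = 0.00763). In NDEP/OVA lungs the difference was 0.45 ± 0.13 (limma adjusted p = 0.0661). Both calls were lost without mouse 2 of OVA, and the CDEP/OVA call was lost without mouse 2 of CDEP/OVA too, over ranges of 0.55 to 0.85 for ADEP/OVA and 0.43 to 0.74 for CDEP/OVA with any mouse left out. The NDEP call was lost without mouse 1 of Saline or mouse 1 or 3 of NDEP, over a range of 0.45 to 0.59. All 3 Relb calls were also lost when only the compared groups were fitted, with limma adjusted p values of 0.0556 for NDEP, 0.0743 for ADEP/OVA and 0.0598 for CDEP/OVA.

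Rela encodes p65, the main activating subunit of the classical route. Its level lay between 9.36 and 9.90 over all 24 mice, and its groups overlapped in each particle comparison. The difference was 0.00 ± 0.13 in NDEP lungs, with a 95% interval of -0.26 to 0.26, and between -0.07 and 0.04 in the other particle comparisons. Rel encodes c-Rel, a subunit best known from lymphocytes and macrophages. Its level lay between 3.74 and 4.40, below the 25th percentile of the array in all 24 mice, so a level above background was not shown. CDEP mice had 4.36, 4.37 and 4.40, against 4.11, 3.91 and 4.24 in Saline mice, a gap without overlap that did not pass (0.29 ± 0.12, limma adjusted p = 0.155).

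Nfkbia encodes IkB-alpha, the inhibitor that is degraded and made again in each round of signalling. On its brightest probe set, 1420088_at, the level lay between 10.82 and 11.56 over all mice, and no group stood apart from its control. The difference was 0.13 ± 0.14 in NDEP lungs (95% interval -0.16 to 0.43) and 0.10 ± 0.14 in CDEP lungs (95% interval -0.19 to 0.40). The 3 other probe sets did not give the same sizes. Probe set 1448306_at differed by 0.53 ± 0.17 in NDEP lungs and 0.56 ± 0.17 in CDEP lungs, with limma adjusted p values over all probe sets of 0.118 and 0.0664. Probe set 1449731_s_at differed by 0.17 in NDEP lungs and 0.00 in CDEP lungs, and 1420089_at by -0.09 and -0.14 in those groups. No Nfkbia probe set passed in these comparisons, and its probe sets disagree on the size.

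**Figure D2:**
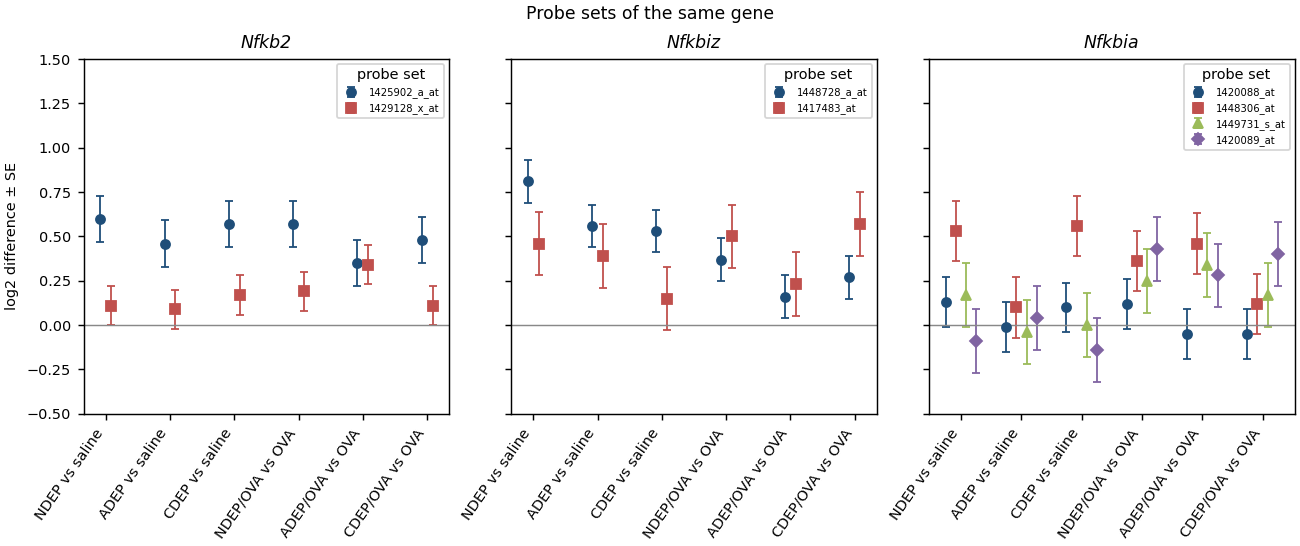
Log2 differences with SE (y axis) of each probe set of Nfkb2, Nfkbiz and Nfkbia, the 3 members with several probe sets, in the 6 particle comparisons (x axis), n = 3 mice per group. In NDEP lungs against Saline lungs the Nfkb2 probe sets lie at 0.60 and 0.11, the Nfkbiz probe sets at 0.81 and 0.46, and the Nfkbia probe sets between -0.09 and 0.53.

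Nfkbie encodes IkB-epsilon, a second inducible inhibitor in the cytoplasm. Its level was 5.53, 5.68 and 5.86 in NDEP lungs, 5.46, 5.48 and 5.35 in ADEP lungs and 5.42, 5.39 and 5.65 in CDEP lungs, against 5.04, 5.24 and 5.07 in Saline lungs. With OVA, it was 5.42, 5.48 and 5.80 in NDEP/OVA lungs, 5.60, 5.64 and 5.47 in ADEP/OVA lungs and 5.73, 5.76 and 5.28 in CDEP/OVA lungs, against 5.17, 5.12 and 5.08 in OVA lungs. All 18 mice given particles lay above all 6 mice that were not. Nfkbie rose in NDEP lungs by 0.58 ± 0.12 (limma adjusted p = 0.00907), or 1.49-fold, and in CDEP/OVA lungs by 0.47 ± 0.12 (limma adjusted p = 0.025). The other particle differences were 0.31 ± 0.12 in ADEP lungs (limma adjusted p = 0.202), 0.37 ± 0.12 in CDEP lungs (limma adjusted p = 0.0862), 0.44 ± 0.12 in NDEP/OVA lungs (limma adjusted p = 0.0579) and 0.45 ± 0.12 in ADEP/OVA lungs (limma adjusted p = 0.101). Over the mice left out in turn, the NDEP difference lay between 0.49 and 0.65, and its call was lost without mouse 1 of Saline or mouse 3 of NDEP. The CDEP/OVA difference lay between 0.38 and 0.62, and its call was lost without mouse 2 or 3 of OVA or mouse 1 or 2 of CDEP/OVA. It was also lost with only the compared groups fitted (limma adjusted p = 0.0699).

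Nfkbiz encodes IkB-zeta, a nuclear protein that acts with p50 to switch on secondary inflammatory genes, and it was the member with the smallest p. Its level was 7.82, 7.88 and 7.86 in NDEP lungs, 7.70, 7.37 and 7.76 in ADEP lungs and 7.66, 7.50 and 7.59 in CDEP lungs, against 7.01, 6.92 and 7.22 in Saline lungs. The lowest particle mouse stood above the highest Saline mouse, and the NDEP mice also stood above all ADEP and CDEP mice. Nfkbiz rose in all 3 particle groups: by 0.81 ± 0.12 in NDEP lungs (1.75-fold, limma adjusted p = 0.000287), 0.56 ± 0.12 in ADEP lungs (limma adjusted p = 0.0184) and 0.53 ± 0.12 in CDEP lungs (limma adjusted p = 0.0152). The NDEP call held with any one of the 6 mice left out, at 0.74 to 0.89. The ADEP call (0.48 to 0.68) was lost without mouse 1 of Saline or mouse 1 or 3 of ADEP, and with only the compared groups fitted (limma adjusted p = 0.0703). The CDEP call (0.47 to 0.62) was lost without mouse 1 of Saline or mouse 1 or 3 of CDEP. With OVA, the level was 7.70, 7.26 and 7.53 in NDEP/OVA lungs, 7.17, 7.31 and 7.36 in ADEP/OVA lungs and 7.37, 7.41 and 7.40 in CDEP/OVA lungs, against 7.28, 6.89 and 7.19 in OVA lungs. Of these groups, only CDEP/OVA lay wholly above OVA. The differences were 0.37 ± 0.12 (limma adjusted p = 0.119) for NDEP/OVA, 0.16 ± 0.12 (limma adjusted p = 0.664) for ADEP/OVA and 0.27 ± 0.12 (limma adjusted p = 0.239) for CDEP/OVA. A second probe set, 1417483_at, passed in none of the 6 comparisons and ran in another order, with 0.46 in NDEP lungs, 0.15 in CDEP lungs and 0.57 in CDEP/OVA lungs (limma adjusted p = 0.0828 over all probe sets for the last).

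Bcl3 encodes a nuclear IkB protein that works with p50 and p52. Its level was 7.07, 6.77 and 6.78 in NDEP/OVA lungs, 6.77, 7.00 and 7.08 in ADEP/OVA lungs and 7.14, 7.31 and 6.93 in CDEP/OVA lungs, against 6.75, 6.27 and 6.19 in OVA lungs. All particle mice lay above all OVA mice, with the closest at 6.77 and 6.75. Bcl3 rose in CDEP/OVA lungs by 0.72 ± 0.15 (1.65-fold, limma adjusted p = 0.00521), and lay between 0.62 and 0.90 with any mouse left out. Its limma adjusted p was 0.0538 without mouse 2 of CDEP/OVA. The differences of 0.47 ± 0.15 in NDEP/OVA lungs and 0.55 ± 0.15 in ADEP/OVA lungs had limma adjusted p values of 0.119 and 0.108. Without OVA, the level was 6.84, 6.58 and 6.77 in NDEP lungs, 7.04, 6.70 and 6.75 in ADEP lungs and 7.01, 6.74 and 7.01 in CDEP lungs, against 6.45, 6.96 and 6.50 in Saline lungs. Mouse 2 of the Saline group lay inside or above the range of each particle group. None of these differences passed, at 0.09, 0.19 and 0.28 with an SE of 0.15.

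Tnfaip3 encodes A20, an enzyme that edits ubiquitin chains and ends signalling from the receptors. Its level was 6.36, 6.46 and 6.42 in NDEP lungs, 6.10, 6.16 and 5.94 in ADEP lungs and 6.32, 6.44 and 6.26 in CDEP lungs, against 5.70, 6.20 and 5.98 in Saline lungs. NDEP and CDEP mice lay above all Saline mice. The differences of 0.46 ± 0.13 in NDEP lungs and 0.38 ± 0.13 in CDEP lungs did not pass (limma adjusted p = 0.0701 and 0.107), though both did without mouse 2 of the Saline group. With OVA, the level was 6.11, 6.08 and 6.14 in NDEP/OVA lungs, 6.49, 6.26 and 6.03 in ADEP/OVA lungs and 6.42, 6.33 and 5.85 in CDEP/OVA lungs, against 5.87, 5.89 and 6.10 in OVA lungs. These groups overlapped, and the differences lay between 0.16 and 0.31.

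**Figure D3:**
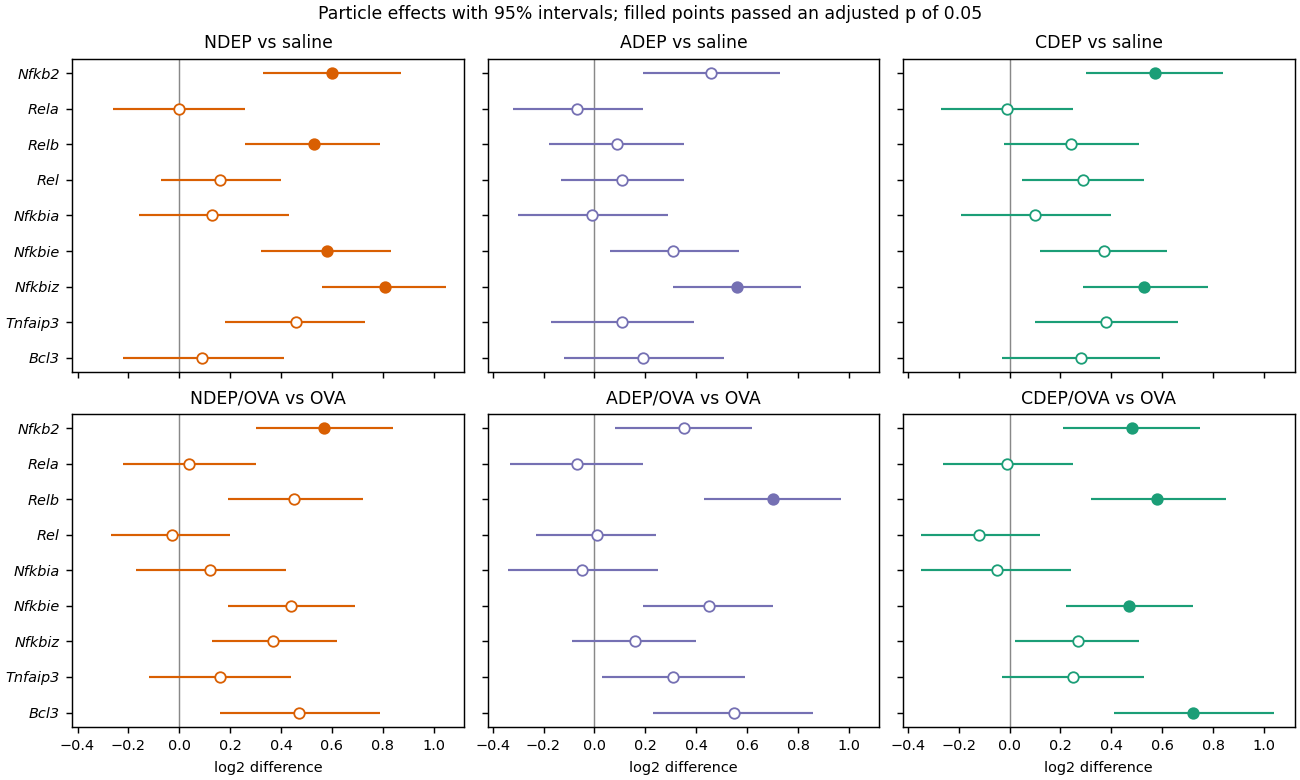
Log2 difference (x axis) with its 95% interval for each measured member (rows) in the 6 particle comparisons, n = 3 mice per group; filled points had a limma adjusted p below 0.05. The filled points number 4, 1 and 2 for NDEP, ADEP and CDEP against Saline and 1, 1 and 4 for NDEP/OVA, ADEP/OVA and CDEP/OVA against OVA, all above 0.

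Counted by comparison, 4 of the 9 members rose in NDEP lungs, where 2.70% of all genes passed in either direction and 2.25% rose. In ADEP lungs 1 member rose, against 1.65% of genes passing and 1.16% rising, and in CDEP lungs 2 rose, against 4.04% and 2.28%. With OVA, 1 member rose in NDEP/OVA lungs (2.07% of genes passed, 1.74% rose), 1 in ADEP/OVA lungs (0.686% and 0.629%) and 4 in CDEP/OVA lungs (4.79% and 3.62%). No member fell in any of the 6. With 9 genes, 1 gene is 1 in 9 of the list, so the counts of 1 rest on single genes, Nfkbiz for ADEP, Nfkb2 for NDEP/OVA and Relb for ADEP/OVA. The median difference of the members was 0.46 in NDEP lungs, 0.11 in ADEP lungs and 0.29 in CDEP lungs, against 0.00, -0.01 and -0.02 over all genes. It was 0.37, 0.31 and 0.27 in NDEP/OVA, ADEP/OVA and CDEP/OVA lungs, against 0.02, 0.03 and -0.01 over all genes. Members whose particle mice all lay above all control mice numbered 5 in NDEP, 3 in ADEP and 6 in CDEP lungs, where 10.8%, 10.7% and 10.9% of all genes did so. They numbered 4 in NDEP/OVA, 4 in ADEP/OVA and 5 in CDEP/OVA lungs, where 9.21%, 11.1% and 12.8% of all genes did so.

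The 3 particles were also compared with each other. No member passed in CDEP against NDEP or CDEP against ADEP, where 0% of genes passed, nor in NDEP against ADEP, where 0.00807% did. At an unadjusted p below 0.05 there were 2, 0 and 3 members in these comparisons by limma. Relb was higher in NDEP lungs than in ADEP lungs by 0.44 ± 0.13 (limma adjusted p = 0.874), and Tnfaip3 by 0.35 ± 0.13 (limma adjusted p = 0.999). In that comparison 5 members were higher without overlap: these and Nfkb2, Nfkbie and Nfkbiz. The share of all genes without overlap, or with an unadjusted p below 0.05, was not counted for the particle pairs. Nfkbiz differed by -0.27 ± 0.12 in CDEP lungs against NDEP lungs (limma adjusted p = 0.818). With OVA, no member passed in CDEP/OVA against NDEP/OVA (0.00807% of genes), CDEP/OVA against ADEP/OVA (1.43% of genes) or NDEP/OVA against ADEP/OVA (0.0161% of genes), and no member had an unadjusted p below 0.05. A call for one particle and none for another is therefore not shown to be a difference between the particles.

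The allergen alone was compared with saline. In OVA lungs against Saline lungs 0 of 9 members passed by limma, as did 0% of all genes, and 1 member had an unadjusted p below 0.05. That member was Relb, at 6.82, 6.21 and 6.51 in OVA lungs, against 6.72, 6.91 and 7.00 in Saline lungs, a difference of -0.36 ± 0.13 (limma adjusted p = 0.595) with overlap. The other members lay between -0.23, for Bcl3, and 0.09. OVA added to a particle gave no call either, in NDEP/OVA against NDEP (0.274% of all genes passed), ADEP/OVA against ADEP (0.0646%) or CDEP/OVA against CDEP (3.58%), with 3, 1 and 1 members at an unadjusted p below 0.05. Nfkbiz was lower without overlap in NDEP/OVA against NDEP lungs (-0.36 ± 0.12, limma adjusted p = 0.296), in ADEP/OVA against ADEP lungs (-0.33 ± 0.12, limma adjusted p = 0.349) and in CDEP/OVA against CDEP lungs (-0.19 ± 0.12, limma adjusted p = 0.356). Also lower without overlap in NDEP/OVA against NDEP lungs were Relb (-0.43 ± 0.13, limma adjusted p = 0.195) and Tnfaip3 (-0.31 ± 0.13, limma adjusted p = 0.469). Nfkb2 was so in ADEP/OVA against ADEP lungs (-0.13 ± 0.13, limma adjusted p = 0.801), a difference about the size of its SE. Rel was so in CDEP/OVA against CDEP lungs (-0.31 ± 0.12, limma adjusted p = 0.118), though its level was not shown to be above background. The share of all genes lower without overlap was not counted for OVA added to a particle. The share with an unadjusted p below 0.05 was not counted there, nor for OVA against Saline. These gaps and unadjusted counts thus have no background to be set against. Averaged over the 4 backgrounds, the OVA difference of Nfkbiz was -0.20 ± 0.06 (limma adjusted p = 0.0763), no member passed, and 2.47% of all genes did.

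Whether OVA changed the particle response was tested as an interaction. No member passed, against 0.0242% of all genes for NDEP, 0.0242% for ADEP and 0.371% for CDEP. In limma, 1, 2 and 1 members had an unadjusted p below 0.05. The share of all genes at that unadjusted threshold was not counted, so these counts have no background to be set against. The interaction of Nfkbiz was -0.43 ± 0.17 for NDEP, -0.40 ± 0.17 for ADEP and -0.27 ± 0.17 for CDEP, with limma adjusted p values of 0.715, 0.41 and 0.526. Those of Bcl3 were 0.38 ± 0.21, 0.35 ± 0.21 and 0.44 ± 0.21, with limma adjusted p values of 0.866, 0.582 and 0.393. For Relb with ADEP it was 0.61 ± 0.18 (95% interval 0.24 to 0.99, limma adjusted p = 0.288). The 3 values of a gene share the Saline and OVA mice, so they are not separate observations. The calls of Nfkbiz without OVA and of Bcl3 with OVA are thus not shown to differ between the backgrounds.

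Markers of several cell types moved in the same comparisons. The summed intensity of 11 neutrophil markers was 1935 to 2523 in NDEP lungs, 2011 to 2971 in ADEP lungs and 2013 to 2196 in CDEP lungs, against 1311 to 1685 in Saline lungs. Over all 24 mice, Ltf alone made 32.5% to 63.4% of this sum. Without Ltf, the sum was 1195 to 1280 in NDEP, 955 to 1494 in ADEP and 1088 to 1187 in CDEP lungs. In Saline lungs it was then 574 to 883. Of the 11, 3 rose in NDEP and in CDEP lungs (S100a8, S100a9 and Csf3r) and 2 in ADEP lungs (S100a8 and S100a9). The 8 that did not pass in NDEP lungs lay between -0.28, for Camp, and 0.41, for Mmp8. With OVA, the sum of all 11 was 1593 to 2399 in NDEP/OVA lungs, 1438 to 2203 in ADEP/OVA lungs and 2059 to 2231 in CDEP/OVA lungs, against 1117 to 1758 in OVA lungs. Without Ltf, it was 886 to 1248 in NDEP/OVA, 964 to 1278 in ADEP/OVA and 754 to 1303 in CDEP/OVA lungs. In OVA lungs it was then 754 to 931, so only ADEP/OVA lay wholly above OVA. By limma, 0 of the 11 rose. Of 9 monocyte and macrophage markers, 4 (Chil3, Itgax, Mrc1 and Cd68) rose in NDEP/OVA and in CDEP/OVA lungs, 0 rose in ADEP/OVA lungs, and 1 (Ccr2) rose in NDEP and in CDEP lungs. Lyz2 alone made 60.2% to 79.5% of their sum, so the sum is given with and without it. Lyz2 did not pass over the 8 groups (limma's F test, adjusted p = 0.452). The full sum was 10441 to 11594 in NDEP, 8729 to 9818 in ADEP and 9807 to 10292 in CDEP lungs. In Saline lungs it was 8207 to 10509. With OVA, it was 9677 to 13965 in NDEP/OVA, 9717 to 10502 in ADEP/OVA and 9931 to 11226 in CDEP/OVA lungs. In OVA lungs it was 9281 to 9739. By the full sum, only CDEP/OVA lay wholly above its control. Without Lyz2, the other 8 markers summed to 2776 to 2971 in NDEP, 2178 to 2290 in ADEP and 2392 to 2534 in CDEP lungs. In Saline lungs they summed to 2152 to 2772. They summed to 2862 to 5483 in NDEP/OVA lungs, 2386 to 3137 in ADEP/OVA lungs and 3928 to 3982 in CDEP/OVA lungs, against 2173 to 2340 in OVA lungs. Of 5 dendritic cell markers, 1 (Ccr7) rose in NDEP lungs, and the sum was 458 to 518 there and 404 to 488 in Saline lungs. No neutrophil, macrophage or dendritic cell marker lay below the 25th percentile on all 24 arrays.

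Markers of structural cells moved too. Of 6 heart muscle markers, 5 fell in CDEP/OVA lungs (list median -0.98), 2 in NDEP/OVA lungs (-0.74), 1 each in NDEP (-0.35) and CDEP lungs (-0.56), and 0 in ADEP or ADEP/OVA lungs. Their sum was 2770 to 3959 in NDEP/OVA lungs, 3542 to 4350 in ADEP/OVA lungs and 2202 to 3270 in CDEP/OVA lungs, against 5170 to 6007 in OVA lungs. It was 3929 to 6442 in NDEP lungs, 5271 to 7716 in ADEP lungs and 3850 to 4827 in CDEP lungs, against 5331 to 10076 in Saline lungs. Of 4 club and ciliated cell markers, 2 fell in CDEP/OVA lungs (Cyp2f2 and Scgb3a2) and 1 in NDEP/OVA lungs (Cyp2f2). Of 5 endothelial markers, 2 fell in ADEP lungs (Cldn5 and Vwf) and 1 in CDEP lungs (Vwf). Of 5 alveolar type 1 markers, 2 rose in CDEP lungs (Pdpn and Rtkn2). Of 5 alveolar type 2 markers, Sftpd rose in NDEP, ADEP and CDEP lungs, by 0.96, 0.66 and 0.84, and Sftpa1 in NDEP lungs. The fibroblast marker Dcn fell in CDEP/OVA lungs, and Il7r of the T and NK cell list rose in NDEP lungs. No eosinophil, B cell or fat marker passed in the 6 particle comparisons. The part of any of these cells in the differences of the NF-kB genes was not tested.

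RNA quality also differed between groups. The signal gap between the 3' end and the 5' end of Gapdh, which widens as RNA degrades, averaged 0.136 ± 0.174 in NDEP lungs, 0.256 ± 0.132 in ADEP lungs and 0.061 ± 0.062 in CDEP lungs, against 0.362 ± 0.285 in Saline lungs (log2, SD, n = 3 each). With OVA the particle means lay above that of the control, at 0.369 ± 0.136 in NDEP/OVA lungs, 0.195 ± 0.090 in ADEP/OVA lungs and 0.396 ± 0.196 in CDEP/OVA lungs, against 0.185 ± 0.156 in OVA lungs. Among all mice, mouse 1 of Saline had the widest Gapdh gap, at 0.679, against 0.125 and 0.283 in mice 2 and 3 of Saline. Every call against Saline except that of Nfkbiz in NDEP lungs was lost without this mouse. The part of its RNA quality in those calls was not tested separately. With the Gapdh and Actb gaps as covariates, the limma adjusted p of Nfkbiz in NDEP lungs was 0.00103 at a difference of 0.91. Under the same covariates, Nfkb2 in NDEP lungs (0.44, limma adjusted p = 0.127), Relb in NDEP lungs (0.47, limma adjusted p = 0.143) and Nfkbie in NDEP lungs (0.40, limma adjusted p = 0.118) no longer passed. Nor did Nfkb2 in CDEP lungs (0.34, limma adjusted p = 0.444) or Nfkbiz in CDEP lungs (0.71, limma adjusted p = 0.0856). All 6 calls in the OVA background held with these covariates, as did Nfkbiz in ADEP lungs. The covariates also added calls for Nfkbie in NDEP/OVA lungs (0.60, limma adjusted p = 0.00466) and ADEP/OVA lungs (0.46, limma adjusted p = 0.0316), for Tnfaip3 in CDEP/OVA lungs (0.43, limma adjusted p = 0.0462), and for Nfkbiz with OVA averaged (-0.24, limma adjusted p = 0.041).

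The rest of the pathway was read from lists arranged by role. Of 17 measured receptors and adaptors, 3 rose in NDEP lungs, 1 each in ADEP, CDEP and NDEP/OVA lungs, 0 in ADEP/OVA lungs and 2 in CDEP/OVA lungs. Cd14, the co-receptor for bacterial lipopolysaccharide, rose by 1.31 ± 0.23 in NDEP lungs (limma adjusted p = 0.0018), 0.95 ± 0.23 in ADEP lungs (limma adjusted p = 0.0326) and 1.16 ± 0.23 in CDEP lungs (limma adjusted p = 0.00661). Tnfrsf1b, a receptor for tumour necrosis factor, rose by 0.47 ± 0.10 in NDEP lungs (limma adjusted p = 0.0105) and 0.55 ± 0.10 in CDEP/OVA lungs (limma adjusted p = 0.00183). Tlr2, a receptor for bacterial lipoproteins, rose by 0.69 ± 0.14 in NDEP lungs (limma adjusted p = 0.00607) and 0.59 ± 0.14 in CDEP/OVA lungs (limma adjusted p = 0.0114). The adaptor Traf5 passed in no particle comparison. None of the 9 measured kinase genes of the classical route passed in any of the 6 particle comparisons, where Ikbkb, the catalytic IkB kinase, lay between -0.14 and 0.26. None of 12 measured genes of the alternative route passed in them either, and Map3k14, the kinase that starts that route, lay between -0.09 and 0.12. In CDEP/OVA against CDEP lungs, Birc2, a ubiquitin ligase that restrains the alternative route, rose by 0.62 ± 0.12 (limma adjusted p = 0.00656), and Tnfrsf11a, the receptor RANK, fell by 0.42 ± 0.11 (a log2 difference of -0.42, limma adjusted p = 0.0353).

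Among 16 other measured inhibitors and feedback genes, 2 rose in each particle comparison except ADEP against Saline, where 1 did. Il1rn, the interleukin-1 receptor antagonist, rose in all 6, by 1.84 ± 0.26 in NDEP lungs (limma adjusted p = 0.000177) and 1.62 ± 0.26 in CDEP/OVA lungs (limma adjusted p = 0.000333). Birc3, a ubiquitin ligase, rose by 0.72 ± 0.16 in NDEP lungs (limma adjusted p = 0.0146) and 0.73 ± 0.16 in NDEP/OVA lungs (limma adjusted p = 0.015). Tnip1, a partner of A20, rose by 0.51 ± 0.12 in ADEP/OVA lungs (limma adjusted p = 0.0335). Of 34 measured textbook target genes, 13 rose in NDEP, 10 in ADEP and 11 in CDEP lungs, and 8, 8 and 18 rose in NDEP/OVA, ADEP/OVA and CDEP/OVA lungs. None fell in these 6 comparisons. The neutrophil chemokine Cxcl1 rose by 2.38 ± 0.33 in NDEP lungs (limma adjusted p = 0.000177) and 2.32 ± 0.33 in CDEP/OVA lungs (limma adjusted p = 0.000116). The chemokine Cxcl5 rose by 2.75 ± 0.33 in CDEP/OVA lungs (limma adjusted p = 9.64e-06), and Lcn2, an iron-binding defence protein, by 2.45 ± 0.36 in NDEP lungs (limma adjusted p = 0.000256). Csf2, the growth factor GM-CSF, rose by 1.27 ± 0.13 in NDEP lungs (limma adjusted p = 7.42e-06) and differed by 0.27 ± 0.13 in NDEP/OVA lungs (limma adjusted p = 0.436). The largest difference of a member in these comparisons was the 0.81 of Nfkbiz in NDEP lungs, where its second probe set gave 0.46. Size also depends on the probe set, so a larger difference in a target gene is not shown to be a larger response. Mmp9 belongs to both the target list and the neutrophil list.

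**Figure D4:**
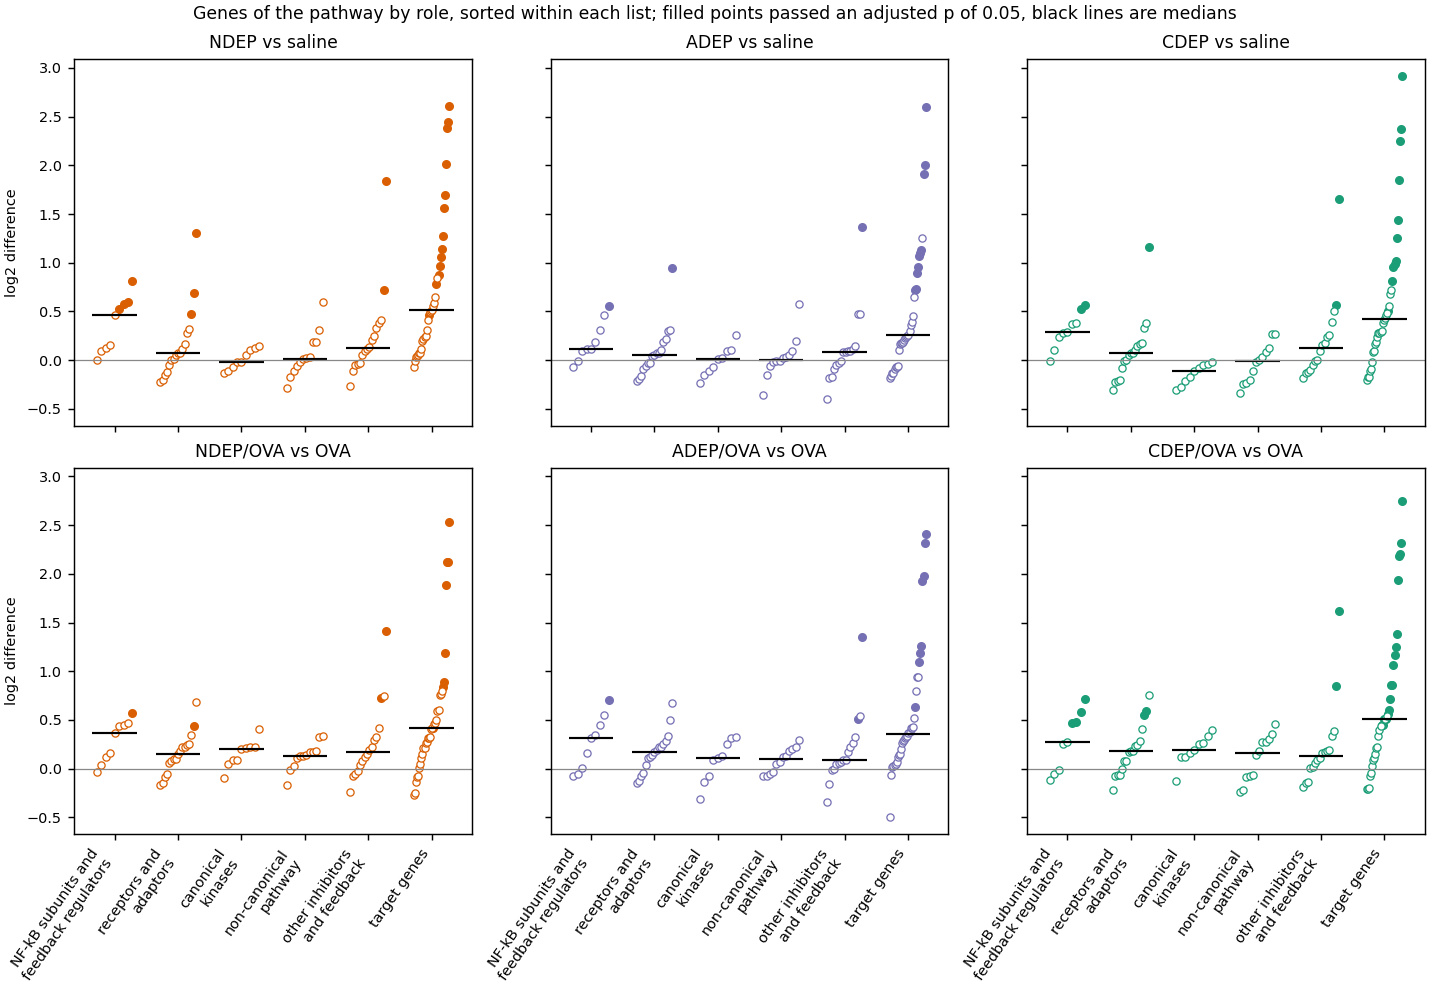
Log2 differences (y axis) of the measured genes of each list (x axis), sorted within the list, for the 3 particles against Saline (upper row) and the 3 particles with OVA against OVA (lower row), n = 3 mice per group; filled points had a limma adjusted p below 0.05 and black lines are list medians. The target genes hold the highest points in all 6 panels, with medians from 0.26 to 0.51, and the kinase list has no filled point.

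The genes most like each member were taken from 10045 genes whose mean lay above the 25th percentile of the median array, by Pearson's r over the 24 mice. The r values are descriptions, since the genes were chosen as the highest of all, and the mice of a group share their treatment. Nfkb2 was most like Hmox1, the haem-degrading enzyme of the oxidative stress response (r = 0.91, Spearman's rho = 0.88), Cfb, a complement factor (r = 0.91), and Ctps (r = 0.91). Nfkbie was most like Lgals3bp (r = 0.92, rho = 0.91), Ncf4, a subunit of the phagocyte oxidase (r = 0.90), and Dab2 (r = 0.89). For Nfkbiz the genes were Sod2, the mitochondrial superoxide dismutase (r = 0.90, rho = 0.89), Plxnb2 (r = 0.89) and Basp1 (r = 0.89). For Relb they were Il1b, which encodes interleukin-1 beta (r = 0.84, rho = 0.79), Cyp7b1 (r = 0.83) and Noxo1 (r = 0.83). With group means removed, r was 0.73 for Nfkb2 with Hmox1, 0.76 for Nfkbie with Lgals3bp, 0.74 for Nfkbiz with Sod2 and 0.78 for Relb with Il1b. Bcl3 was most like Tmed9 (r = 0.85), Nop58 (r = 0.82) and Spcs3 (r = 0.81), and Tnfaip3 was most like Fads3 (r = 0.80), Hcar2 (r = 0.79) and the adhesion molecule Icam1 (r = 0.79). The best values were lower for the 3 members with the largest F test p, at 0.78 for Rela with Zzz3 and Foxn2 and 0.77 with Cd2ap, 0.74, 0.70 and 0.68 for Nfkbia with Prkab1, Pcgf6 and Kcnmb2, and 0.61 for Rel with Tmem175, Lamtor5 and Scrn2.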

How the data were processed

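Biotin-labelled RNA from 2 ug of total lung RNA was measured on 1-colour Affymetrix arrays, per the labels' protocols. The deposited intensity values were normalised with RMA, per the submitters' processing notes, and the version is not given in the sources used here. These deposited values spanned 5.98 to 18195.5, a linear scale, and log2 was computed from them although log2 input had been planned for. Background signal was not analysed here. Of 22690 probe sets, 20380 carried 1 gene symbol, which gave 12393 genes at the brightest probe set each. limma 3.58.1 in R 4.3.3 fitted 8 group means to 24 arrays (16 residual and 8.16 prior degrees of freedom), with two-sided moderated tests and Benjamini-Hochberg adjustment per comparison at 0.05. The code was tested on simulated data. The members, pathway lists and markers were chosen with earlier results of these data known, so their counts are descriptions. Named genes were all members, up to 4 genes per list with the smallest F test p, and the 3 most similar genes per member. The most alike arrays correlated at 0.996, so none was counted as a copy, and the number of arrays limits the precision. Figures used Python 3.11.15 with matplotlib 3.10.9. Alternatives were other probe sets, all probe sets, a filter on dim genes, quantile normalisation, only the compared groups, array weights, a variance trend with robust fitting, RNA quality covariates, a replicate block, and each array left out. No pairing of the arrays by replicate number was detected.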

Additional observations from a re-analysis of the deposited data

How the results depend on the processing

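No member value with a call in either setting changed direction. Of the member values under all alternatives, 2919 kept their side of the threshold, 52 lost a call and 24 gained one. The 52 losses all fell on the 13 values called in the main fit, whereas most of the 2919 were values without a call. With the second probe set the counts of members called became 2 for NDEP, 0 for ADEP and 0 for CDEP against Saline, 0 for NDEP/OVA against OVA and 3 over the 8 groups. Array weights gave 2 for ADEP and 4 for CDEP against Saline, 3 for NDEP/OVA, 3 for ADEP/OVA against OVA, and 1 for OVA averaged. With only the compared groups in the fit, which leaves fewer residual degrees of freedom, 7 of the 13 calls were lost, and the counts were 3 for NDEP (without Relb) and 0 for ADEP (without Nfkbiz) against Saline, 0 for NDEP/OVA (without Nfkb2), 0 for ADEP/OVA (without Relb) and 1 for CDEP/OVA (Bcl3) against OVA. For OVA averaged and for the 8 groups, which use all arrays, that alternative gave no separate value. RNA quality covariates gave 1 for NDEP and 0 for CDEP against Saline, 2 for NDEP/OVA and 2 for ADEP/OVA against OVA, and 1 for OVA averaged. The other alternatives moved no count by over 1.5 times, apart from the replicate block. That block gave 1 for OVA averaged (Nfkbiz, -0.20, limma adjusted p = 0.0429) in place of 0. Same-numbered arrays had a mean r of 0.031 (from -0.323 to 0.354), against -0.016 for other numbers, and 10 of 24 arrays were best matched by their own number. No pairing by number was detected, though with 3 arrays per group a weak one could be missed. The cause of these shifts was not tested.

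With 1 array left out at a time, the count ran from 1 to 5 for NDEP, 0 to 2 for ADEP and 0 to 3 for CDEP against Saline, and from 0 to 3 for NDEP/OVA, 0 to 2 for ADEP/OVA and 0 to 4 for CDEP/OVA against OVA. It ran from 0 to 1 for OVA averaged and 4 to 6 over the 8 groups (4 with 19 of the 24 arrays left out, when Bcl3 was lost), and stayed at 0 for the interactions, the particle pairs, OVA against Saline, and OVA added to each particle. Against Saline, the lowest counts came without mouse 1 of Saline, and equally without mouse 3 of NDEP, mouse 1 or 3 of ADEP, or mouse 1 of CDEP. The highest came without mouse 2 of Saline. Rel was the one member removed by the filter on dim genes, and RMA compresses differences of dim probe sets. With 3 mice per group, differences well above their SE could fail to pass, such as 0.46 ± 0.13 for Nfkb2 in ADEP lungs (limma adjusted p = 0.0759).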
